A study of Mus musculus with 12 samples.

Results

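The transcripts described here belong to 7 genes with which an antigen-presenting cell shows peptides to helper T cells and sets how those T cells respond. They are Ciita, Cd74 and H2-DMa of the MHC class II pathway, the costimulatory ligand genes Cd86 and Cd80, the receptor gene Cd40, and the coinhibitory ligand gene Cd274, whose product is PD-L1. They were taken by symbol from a count table of 12483 genes, and all 7 were present and passed the filter on low counts. RNA came from RAW264.7 cells, a mouse macrophage line, transfected with CRISPR constructs against both flanks of a region the labels call NRE1, selected by GFP and puromycin and grown out as single-cell clones. The 4 groups were wild-type (WT) clones 1, 2 and 3 and deletion (KO) clones 1A, 1B and 2, each with medium alone or with LPS (10 ng/mL) plus IFN-gamma (50 ng/mL), for 6 h. Every clone gave 1 total RNA library per condition, so each group held 3 libraries. LPS is a component of bacterial outer membranes, and interferon gamma is a cytokine of T and NK cells that activates macrophages. The labels do not state what NRE1 stands for, how the WT clones were made or what relates KO clones 1A and 1B. The deletion could not be checked from the table, which names no NRE1. P-values measure the spread between these clones.

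MHC class II molecules carry peptides from the endosomal route to CD4+ T cells. CIITA is the coactivator that switches on their genes, with the RFX and NF-Y factors already at the promoters, and interferon gamma induces it. The invariant chain, encoded by Cd74, guides new class II molecules to endosomes, and H2-DM, of which H2-DMa encodes the alpha chain, then removes its remnant so that peptides can bind. T cells read a second signal at the same time: CD80 and CD86 engage CD28 or CTLA-4, CD40 receives CD40 ligand from the T cell, and PD-L1 engages the inhibitory receptor PD-1.

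Total counts per library ran from 10624591 to 14388590. Levels are in CPM, read counts set relative to the library total after TMM adjustment. A gene was called where the p of edgeR's quasi-likelihood test, adjusted over 12231 genes by the Benjamini-Hochberg method, was below 0.05. All 10 macrophage markers of a list were measured, with summed levels of 8179 to 18897 CPM in WT and 4405 to 13695 CPM in KO libraries in medium. Under stimulation the sums were 9667 to 19006 CPM in WT and 5814 to 11671 CPM in KO libraries. Of 6 B cell markers 1 was measured (Blnk), of 6 T or NK cell markers 1 (Lck), and of 8 fibroblast or epithelial markers none. Dendritic cell markers were measured in 5 of 8 cases, and their sums were 2.1 to 43.1 CPM in WT and 2.25 to 3.52 CPM in KO libraries in medium, and 16.2 to 86.6 and 13.1 to 14.5 CPM under stimulation. In such bulk RNA, fewer cells of a type and less RNA per cell cannot be told apart.

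The 250 bases before the annotated start of Cd80 and of Cd274 are shown because a ligand that engages CD28 and one that engages PD-1 rose together in every clone. They come from RefSeq (GRCm38.p6), both read on the plus strand, and capitals mark matches to the motifs searched.
Cd274 (chr19:29367188-29367437): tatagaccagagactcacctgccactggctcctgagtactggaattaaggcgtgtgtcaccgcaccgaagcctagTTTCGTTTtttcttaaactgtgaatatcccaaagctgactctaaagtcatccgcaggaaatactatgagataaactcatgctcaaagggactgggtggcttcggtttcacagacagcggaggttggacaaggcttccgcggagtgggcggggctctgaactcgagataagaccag
Cd80 (chr16:38458683-38458932): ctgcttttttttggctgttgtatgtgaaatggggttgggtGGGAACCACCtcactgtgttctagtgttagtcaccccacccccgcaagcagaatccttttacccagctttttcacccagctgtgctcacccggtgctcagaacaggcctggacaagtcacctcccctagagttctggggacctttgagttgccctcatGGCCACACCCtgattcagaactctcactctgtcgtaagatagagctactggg
The search covered both strands for the interferon-gamma-activated site TTCNNNGAA, an interferon regulatory factor (IRF) element AANNGAAA, a kB site GGGNNNNNCC and the CCAAT box CCAAT. In Cd274 the 1 match was the IRF element TTTCGTTT, which begins 175 bases before the start. In Cd80 the kB letters matched as GGGAACCACC at 210 bases and as GGCCACACCC at 52 bases before the start, and an IRF match, TTTCTCTT, began at base 31 after it. Among 32851 promoter windows of 300 bases, 23.9% held the IRF letters, 50.8% the kB letters, 37.4% a CCAAT box and 8.3% the interferon-gamma-activated site, so none of these matches is rare. The RefSeq start of Cd80 lies 3372 bases after the start of the GENCODE gene, and that of Cd274 17 bases before it. Of the 7 genes, 3 had a RefSeq window, the remaining one being H2-DMa, and Ciita, Cd74, Cd86 and Cd40 had none.

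Cd86 (chr16:36603869-36666081, minus strand) and Cd80 (chr16:38455561-38496335, plus strand) lie on the same chromosome (GRCm38 coordinates, genes and exons from GENCODE). Ciita lies there too, at chr16:10480059-10528418, Cd74 at chr18:60803848-60812652, H2-DMa at chr17:34119541-34139101, Cd40 at chr2:165055627-165072948 and Cd274 at chr19:29367455-29388095, all on the plus strand. Exons of Cd274 overlap the gene AC119228.1 over 14.11% of their length and those of H2-DMa overlap Brd2 over 10.44%, so a share of their counts is uncertain. The overlap was 3.45% for Ciita with Dexi and 0.71% for Cd74 with Mir5107, and none for Cd86, Cd80 and Cd40.

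In WT clones LPS/IFN-gamma raised 6 of the 7 genes, all but H2-DMa, against 23.8% of all genes called higher and 47.4% called in either direction. In KO clones 5 rose, all but Ciita and H2-DMa, against 26.7% called higher and 54.3% called. Ciita, with 0 or 1 counts in medium, has no fold that can be ranked. Among the other genes called, the fold was larger for Cd40 and Cd86 than for Cd274 and Cd80, and it was least for Cd74, whose mean went from 47.6 to 130 CPM in WT and from 104 to 197 CPM in KO clones. With each clone's pair of libraries compared within the clone (clone as a replicate block), all 7 were called higher in both genotypes. That fit also called more of all genes in either direction, 7485 of 12231 in the WT response against 5796 in the unpaired fit. Its share of all genes called higher is not given here, so these calls of all 7 have no matching background. In the KO response the alternative fits called up to 8082 genes, against 6638. The stimulated and medium libraries did not overlap for 6 of the 7 genes in WT clones, where this held for 50.5% of all genes, and for all 7 in KO clones, where it held for 70%.

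**Figure D1:**
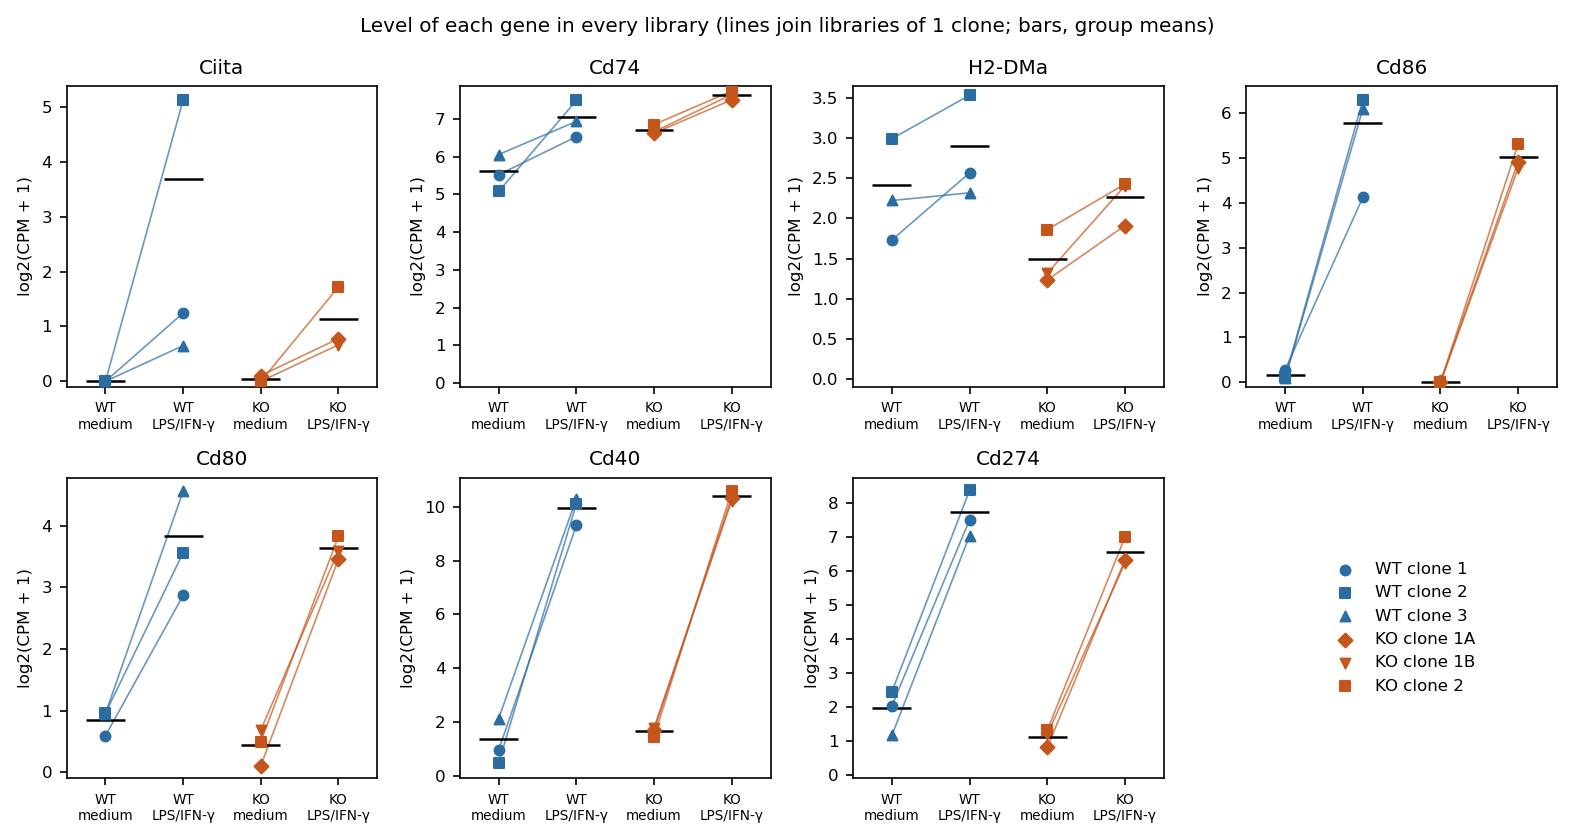
Level of each gene in each of the 12 libraries as log2(CPM + 1), with WT clones in blue, KO clones in orange, a line joining the 2 libraries of a clone and a black bar for the group mean. Cd86, Cd80, Cd40 and Cd274 climbed in every clone, Cd74 started from a high level, and Ciita stood far higher in stimulated WT clone 2 than in any other library.

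Ciita, the master regulator of class II genes, was almost silent in medium. It had 0 counts in all 3 WT libraries and 1, 0 and 0 counts in KO clones 1A, 1B and 2. Under stimulation it reached 1.37, 34 and 0.57 CPM in WT clones 1, 2 and 3, and 0.716, 0.587 and 2.3 CPM in KO clones 1A, 1B and 2. One library, WT clone 2, thus held 94.1% of the stimulated WT signal, 24.8 times the next WT clone, while the other WT clones lay within the range of the KO clones or just below it. Against a floor of 3 counts over the medium group, Ciita rose at least 161-fold in WT clones (adjusted p = 0.01 in edgeR, 1.8e-05 with the replicate block). Without WT clone 2 the bound fell to at least 9.73-fold (adjusted p = 0.011). In KO clones there were 34 counts against 1, which is 47-fold (7.89 to 1911, 95% interval for counting error). That difference was not called (adjusted p = 0.110), but it was called with the replicate block (adjusted p = 7.9e-04), in DESeq2 (adjusted p = 0.018) and without WT clone 2 (adjusted p = 0.0033).

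Cd74, the invariant chain gene, had the highest level per exon length of the class II genes in every library. It stood at 44.8, 32.7 and 65.4 CPM in WT clones 1, 2 and 3 in medium and at 91.1, 178 and 121 CPM under stimulation. In KO clones 1A, 1B and 2 it stood at 97.2, 99.8 and 114 CPM in medium and at 180, 199 and 212 CPM under stimulation. The KO clones in medium were thus about where stimulated WT clone 1 was, and the conditions did not overlap within either genotype. Cd74 rose in WT clones by 1.45 ± 0.27 (SE) on the log2 scale (edgeR adjusted p = 0.0012), and by 0.92 without WT clone 2, whose fold was 5.46 against 2.03 and 1.84 in clones 1 and 3. In KO clones it rose by 0.92 ± 0.26 (adjusted p = 0.012), with folds of 1.86, 1.99 and 1.85. The KO call was lost with library totals in place of TMM (0.54, adjusted p = 0.089), with clones 1A and 1B summed (adjusted p = 0.069) and without any 1 KO clone (adjusted p = 0.066, 0.08 and 0.06 without 1A, 1B and 2).

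H2-DMa, which encodes the alpha chain of the peptide-exchange factor, was a low transcript with a small difference. It stood at 2.32, 6.97 and 3.67 CPM in WT clones 1, 2 and 3 in medium and at 4.93, 10.6 and 3.99 CPM under stimulation. In KO clones 1A, 1B and 2 it stood at 1.35, 1.49 and 2.63 CPM in medium and at 2.76, 4.3 and 4.38 CPM under stimulation. In TMM-adjusted CPM each clone's stimulated library was higher than its medium library, by 2.13, 1.53 and 1.09 times in WT clones and by 2.05, 2.89 and 1.66 times in KO clones, but the WT conditions overlapped. WT clone 3 had 59 counts in medium and 42 under stimulation, so its rise rests on the TMM adjustment. The difference was 0.59 ± 0.46 (edgeR adjusted p = 0.317) in WT and 1.07 ± 0.49 (adjusted p = 0.089) in KO clones on the log2 scale. Under library totals in place of TMM the WT difference was 0.24 (edgeR adjusted p = 0.675). With the replicate block the adjusted p was 0.042 in WT and 0.005 in KO clones, and without WT clone 2 the KO difference was called as well (adjusted p = 0.021).

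Of 13 genes of class II chains, invariant chain and peptide exchange, 4 were measured, the 3 described above and H2-Ab1, the beta chain gene of the I-A molecule, and the other 9 were not analysed here. H2-Ab1, named after its values were seen, had 0 counts in all WT libraries but stimulated clone 2, which had 35. In KO clones 1A, 1B and 2 it had 3, 5 and 14 counts in medium and 2, 1 and 12 under stimulation. WT clone 2, the library with the highest Ciita, was thus also the only WT library with H2-Ab1 counts, whereas KO clones held a few counts with hardly any Ciita in medium. H2-Ab1 was not called in WT (at least 15.9-fold higher, adjusted p = 0.073, and 8.0e-04 with the replicate block) or in KO clones (-0.09 ± 1.64, adjusted p = 0.969).

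Markers used for other cells did not share 1 pattern over the clones. Itgax, a dendritic cell marker that activated macrophages also express, had 356 counts in medium and 577 under stimulation in WT clone 2 and at most 63 in any other library. The B cell marker Blnk had 474 and 229 counts there, against at most 145 elsewhere. Siglech, another dendritic cell marker, had 167 and 63 counts in WT clone 2, against at most 16 elsewhere. Xcr1 and Clec9a, dendritic cell markers too, were instead highest among stimulated WT clones in clone 3, with 301 and 74 counts against 155 and 35 in clone 2. The T cell marker Lck was lowest of the WT clones in clone 2 in both conditions, with 22 and 78 counts. These marker genes were chosen after their values were seen, and their part in the Ciita and H2-Ab1 values was not tested.

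Cd86, a ligand of CD28 and CTLA-4, was barely detected in medium and abundant under stimulation. In medium it had 3, 1 and 1 counts in WT clones 1, 2 and 3 and 0 counts in all 3 KO clones. Under stimulation it reached 16.4, 77.3 and 67.2 CPM in WT clones and 29.3, 26.4 and 38.8 CPM in KO clones 1A, 1B and 2. All stimulated libraries were far above all medium libraries, and WT clone 1 was the lowest of the stimulated ones. Cd86 rose by 8.71 ± 0.81 on the log2 scale in WT clones (edgeR adjusted p = 6.7e-05) and at least 420-fold in KO clones (adjusted p = 6.1e-05).

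Cd80, the other ligand of that pair of receptors, responded less and stayed lower. It stood at 0.507, 0.94 and 0.933 CPM in WT clones 1, 2 and 3 in medium and at 6.3, 10.8 and 22.6 CPM under stimulation. In KO clones 1A, 1B and 2 it stood at 0.075, 0.609 and 0.411 CPM in medium and at 10, 11.1 and 13.2 CPM under stimulation. The medium levels were 7, 12 and 15 counts in WT and 1, 9 and 5 counts in KO clones. Under stimulation clone 3 was the highest WT clone, not clone 2. Cd80 rose by 4.04 ± 0.55 in WT (edgeR adjusted p = 2.0e-04) and by 4.92 ± 0.61 in KO clones (adjusted p = 7.1e-05) on the log2 scale.

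Cd40, the receptor for CD40 ligand, became the highest of the 7 transcripts per exon length. In medium it stood at 0.942, 0.392 and 3.36 CPM in WT clones 1, 2 and 3 and at 2.25, 2.43 and 1.73 CPM in KO clones 1A, 1B and 2. Under stimulation it reached 635, 1112 and 1270 CPM in WT clones and 1299, 1203 and 1540 CPM in KO clones. WT clone 1 was the lowest stimulated library, and the other 5 lay close together. The rise was 9.26 ± 0.62 in WT clones (edgeR adjusted p = 2.3e-06) and 9.29 ± 0.62 in KO clones (adjusted p = 1.7e-06) on the log2 scale. The fold of single clones ran from 378 in WT clone 3, which had the highest level in medium, to 2839 in WT clone 2, which had the lowest. Those medium levels were 54 and 5 counts, so the larger fold is uncertain.

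Cd274, the PD-L1 gene, rose in every clone of both genotypes. It stood at 3.11, 4.46 and 1.24 CPM in WT clones 1, 2 and 3 in medium and at 180, 329 and 130 CPM under stimulation. In KO clones 1A, 1B and 2 it stood at 0.75, 1.28 and 1.48 CPM in medium and at 79.2, 73.8 and 126 CPM under stimulation. All 3 stimulated KO libraries lay below all stimulated WT libraries, KO clone 2 only just so. The folds of single clones were 57.8, 73.6 and 105 in WT and 106, 57.5 and 85.3 in KO clones, ranges that overlap almost entirely. The rise was 6.2 ± 0.52 in WT (edgeR adjusted p = 1.1e-05) and 6.3 ± 0.55 in KO clones (adjusted p = 1.0e-05) on the log2 scale.

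**Figure D2:**
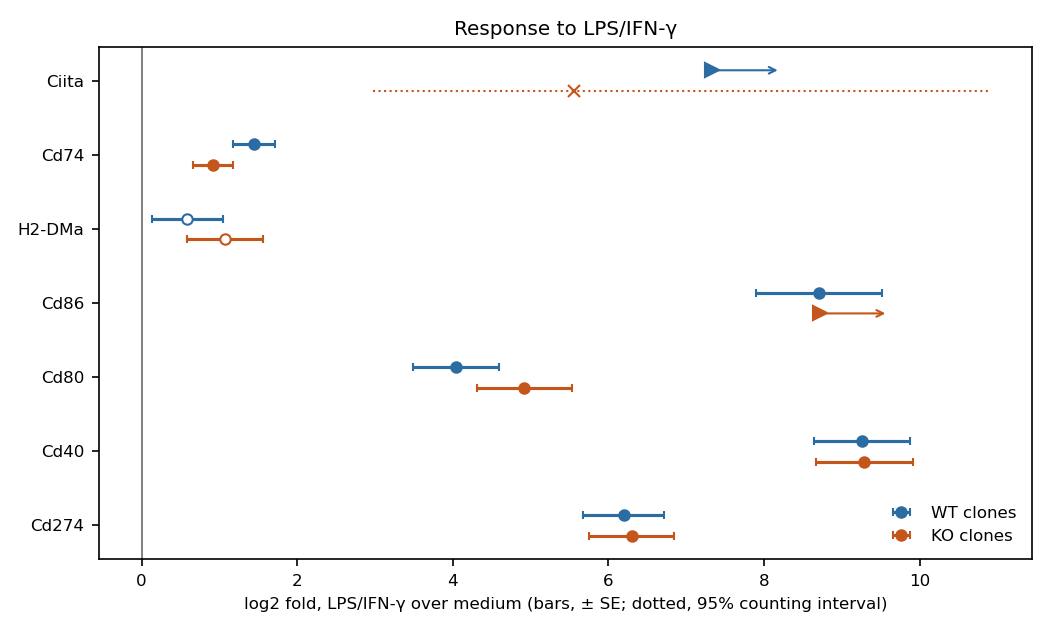
Log2 fold of each gene, LPS/IFN-gamma over medium, in WT (blue) and KO (orange) clones, with bars of 1 SE from the edgeR fit. Filled circles passed the test, open ones did not, a triangle with an arrow is a lower bound against a floor of 3 counts, and the cross with a dotted line is a ratio with its 95% counting interval. Among the circles Cd40, and in WT clones Cd86, lie farthest to the right, Cd74 and H2-DMa nearest to 0.

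Divided by exon length (CPM per kb), the order of mean levels could be compared between genes. Cd74 was first in medium, at 28.4 in WT and 61.8 CPM per kb in KO clones, and all other genes were at or below 1.25. In WT clones H2-DMa (1.25), Cd274 (0.812), Cd40 (0.459) and Cd80 (0.214) followed, each overlapping its neighbour in that order, then Cd86 (0.0326) and Ciita (0). In KO clones Cd40 (0.627), H2-DMa (0.529) and Cd274 (0.323) overlapped in the same way, with Cd80 (0.0985) below them and Ciita and Cd86 at or next to 0.

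Under stimulation Cd40 overtook Cd74. In KO clones the order was Cd40 (396 CPM per kb), Cd74 (117), Cd274 (25.7), Cd86 (8.6), Cd80 (3.1), H2-DMa (1.11) and Ciita (0.126), and no neighbours in it overlapped. The means in WT clones had the same order, with Cd40 at 295, Cd74 at 77.5, Cd274 at 58.8, Cd86 at 14.7, Cd80 at 3.58, H2-DMa at 1.89 and Ciita at 1.26 CPM per kb. There only Cd40 from Cd74 and Cd274 from Cd86 were separated by more than the spread of the clones, and the remaining neighbours overlapped.

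No gene of the 7 was called between KO and WT clones in medium, where 1.21% of all genes were called. At the looser threshold of an unadjusted edgeR p below 0.05, 3 of the 7 passed. The share of all genes passing that threshold is not given here, so the 3 have no background. Cd74 came nearest, higher in KO clones by 1.12 ± 0.26 on the log2 scale (edgeR adjusted p = 0.073) with no overlap between the groups. It was called higher in DESeq2 (adjusted p = 0.0022), without WT clone 2 (0.91, adjusted p = 0.049) and without WT clone 3 (1.42, adjusted p = 0.028). H2-DMa (-1.24 ± 0.49, adjusted p = 0.275), Cd274 (-1.3 ± 0.58, adjusted p = 0.352) and Cd80 (-1.08 ± 0.65, adjusted p = 0.515) had lower means in KO clones, and their clones overlapped. Cd86, at 0 counts in KO against 5 in WT clones, was at least 1.57-fold lower (adjusted p = 0.583), Cd40 differed by 0.4 ± 0.58 (adjusted p = 0.825), and Ciita was at or under the floor in both. The groups did not overlap for 2 of the 7, Cd74 and Cd86, against 20.9% of all genes.

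Under LPS/IFN-gamma none of the 7 was called between the genotypes either, against 4.64% of all genes called, and DESeq2 called none. An unadjusted p below 0.05 was reached by 3, Cd274, Cd74 and Ciita, in edgeR and by 2 in DESeq2. This threshold is looser than that of the 4.64%, and the share of all genes reaching it is not given here. Cd274 averaged 93.1 ± 28.9 CPM (SD, n = 3) in KO and 213 ± 103 CPM (SD, n = 3) in WT clones. That is a difference of -1.19 ± 0.4 on the log2 scale (edgeR adjusted p = 0.124), and it was called without WT clone 3 (-1.45, adjusted p = 0.026). Cd74 averaged 197 ± 15.8 CPM in KO and 130 ± 44.4 CPM in WT clones, a difference of 0.6 ± 0.26 (adjusted p = 0.219). It was called without WT clone 2 (0.91, adjusted p = 0.026). These 2 genes had no overlap between the groups, in opposite directions, where 24% of all genes had none.

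The other 5 genes overlapped between the genotypes under stimulation. Ciita differed by -3.32 ± 1.41 (edgeR adjusted p = 0.227), and without WT clone 2 the difference turned to 0.29 (adjusted p = 0.860), so its direction rests on 1 library. Cd86 differed by -0.77 ± 0.48 (adjusted p = 0.408) and was called lower in KO clones without WT clone 1 (-1.2, adjusted p = 0.023). Cd80 differed by -0.21 ± 0.46 (adjusted p = 0.843), which turned to 0.42 without WT clone 3. H2-DMa differed by -0.77 ± 0.47 (adjusted p = 0.382) and Cd40 by 0.42 ± 0.42 (adjusted p = 0.609). In simulated data of the same size this comparison recovered 100% of 4-fold and 42% of 2-fold changes. A 2-fold change was thus missed there more often than it was found. The coefficient of variation of the fit was 23.6%. In stimulated WT libraries it was 159% for Ciita, 63.5% for Cd80, 60.8% for Cd86, 55.3% for H2-DMa and 32.8% for Cd40. In stimulated KO libraries it was 79.4% for Ciita and 12.9% to 23.9% for the others. Recovery at the larger spreads is not given here, so a 4-fold change in such genes is not excluded. Ciita, at -3.32, was itself not called.

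**Figure D3:**
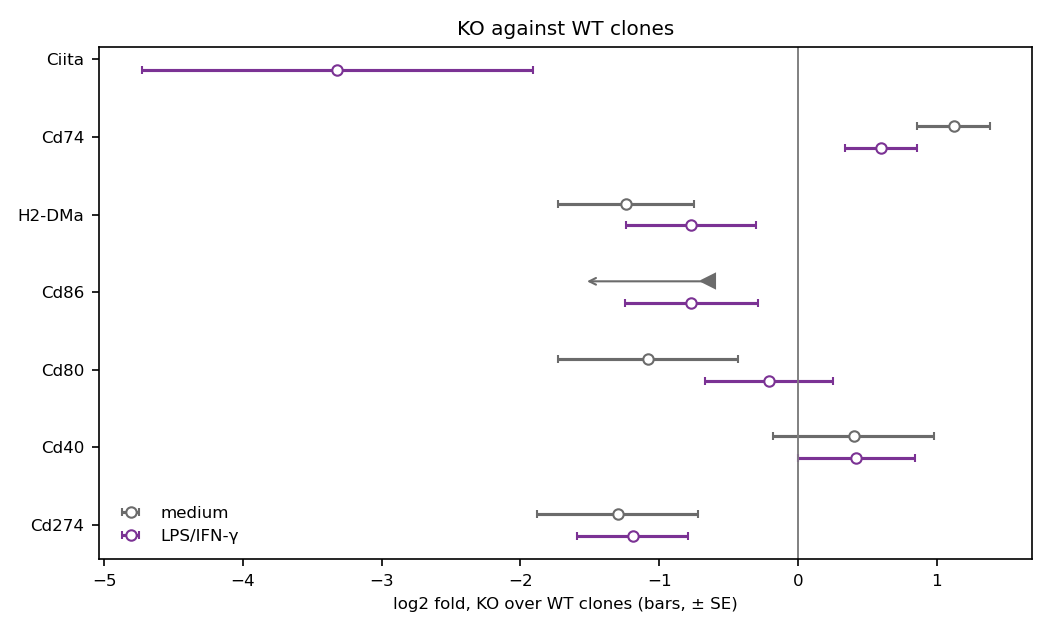
Log2 fold of each gene, KO over WT clones, in medium (grey) and under LPS/IFN-gamma (purple), with bars of 1 SE from the edgeR fit; open circles did not pass the test and the triangle with an arrow is a bound against a floor of 3 counts. Cd74 lies to the right and Cd274 to the left of 0 in both conditions, and no gene passed the test; Ciita in medium is not drawn because both groups were at or under the floor.

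Whether the response itself differed between the genotypes was tested by the interaction of genotype and stimulation. It called 0 of the 7 genes and 0% of all genes in edgeR, with 0 of the 7 at an unadjusted p below 0.05 and 0 of the 7 in DESeq2. For Cd40 the KO response exceeded the WT response by 0.02 ± 0.78, for Cd274 by 0.1 ± 0.67, for H2-DMa by 0.47 ± 0.67 and for Cd80 by 0.88 ± 0.8 on the log2 scale. For Cd74 it was lower by a value of -0.52 ± 0.37. The adjusted p was 1.000 for all 7, Ciita and Cd86 included, for which 0 counts in medium leave no fitted size. The SE of these differences was 0.37 to 0.8 for the 5 genes. A 2-fold difference in response, higher or lower, lies within 2 SE of the estimate for each of them. With the replicate block the SE was 0.26 to 0.56, and this held for all of them but Cd274 (0.08 ± 0.26), with none of the 7 called. That fit had 4 residual degrees of freedom.

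Under stimulation the coefficient of variation was larger in WT than in KO libraries for all 7 genes, which was true of 72.1% of all genes, and nothing particular to the 7 is read from it. In medium Cd80 went the other way, with 31.2% in WT and 73.9% in KO clones. Under stimulation it was 60.8% in WT and 20.7% in KO clones for Cd86, and for Cd80 63.5% and 14.2%, for Cd74 34.2% and 8.03%, and for Ciita 159% and 79.4%. WT clone 2 was the highest stimulated WT library for 5 of the 7 genes and clone 3 for the other 2, Cd80 and Cd40. WT clone 1 was the lowest for 4. Among KO clones, clone 2 was the highest for all 7, and the lowest was 1A for 3 and 1B for 4.

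Ratios within a library, computed per kb, showed how the balance of ligands shifted between clones. Under stimulation Cd86 exceeded Cd80 by 2.64, 7.2 and 3.01 times in WT clones 1, 2 and 3 and by 2.95, 2.4 and 2.97 times in KO clones 1A, 1B and 2. Cd274 exceeded the sum of Cd80 and Cd86 by 8.04, 3.78 and 1.47 times in WT clones and by 2.04, 1.99 and 2.46 times in KO clones. WT clone 1, low in both CD28 ligands, thus had the greatest excess of PD-L1 transcript, and the KO clones lay inside the WT range. Cd40 exceeded Cd274 by 3.75, 3.6 and 10.4 times in WT clones and by 17.4, 17.3 and 13 times in KO clones. Cd74 exceeded H2-DMa by 38, 34.4 and 62.1 times in WT clones and by 134, 94.9 and 99.3 times in KO clones. For these last 2 ratios all KO clones lay above all WT clones. Under stimulation the genotypes did not overlap for 24% of all single genes, Cd274 and Cd74 among them, and the share of such ratios is not given here. The ratios were chosen with the values known and were not tested.

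Of 12 genes of the class II transcription machinery, 1 rose and 2 fell in WT clones, where 47.4% of all genes were called (median log2 fold change -0.11, against -0.01 for all genes), and 1 rose and 3 fell in KO clones, where 54.3% were called (median -0.14). Rfxap, an RFX subunit gene, fell by 0.57 ± 0.13 on the log2 scale in WT clones (edgeR adjusted p = 0.0049). Nfyb, an NF-Y subunit gene, fell by 0.46 ± 0.14 (adjusted p = 0.023), a call lost without WT clone 3 (-0.29, adjusted p = 0.185) and without KO clone 1A (0.05). The gene that rose was Prdm1, whose product BLIMP-1 represses Ciita in lymphocytes, with 58 counts against 1 in WT clones, which is 78.9-fold (13.6 to 3169 for counting error, adjusted p = 0.0049). Of these counts 49 came from WT clone 2, with 6 and 3 in clones 1 and 3, and without clone 2 the rise was at least 4.17-fold (adjusted p = 0.0082). With library totals in place of TMM, the median of all genes moved from -0.01 to -0.37 in WT and to -0.39 in KO clones. The share of calls that were higher then went from 50.3% to 23.2% and from 49.1% to 24.5%, and 1 gene of this list rose and 7 fell in each genotype.

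Of 10 genes of class II peptide processing and turnover, 4 rose and 1 fell in WT clones (median 0.31) and 3 rose and 3 fell in KO clones (median 0.15), with 2 and 2 in WT and 1 and 4 in KO clones under library totals, which turned both medians below 0. The 5 and 6 genes of 10 called with TMM are near the 47.4% and 54.3% of all genes called. Sppl2a, the protease that clears the invariant chain fragment, rose by 1.78 ± 0.15 in WT (edgeR adjusted p = 9.4e-06) and by 1.99 ± 0.16 in KO clones. March1, which encodes a ubiquitin ligase for class II and CD86, had 5, 595 and 374 counts in stimulated WT clones 1, 2 and 3 and 23, 29 and 3 in KO clones 1A, 1B and 2, against at most 9 in medium. It rose in WT clones (7.0 ± 1.57, adjusted p = 0.0045) and was not called in KO clones (adjusted p = 0.058, and 7.5e-04 with the replicate block) or between the genotypes under stimulation (-4.1 ± 1.29, adjusted p = 0.103). March8, a close relative, rose by 0.3 ± 0.1 (adjusted p = 0.031), which turned to -0.06 under library totals and was not called without WT clone 2 (0.108), WT clone 3 (0.124) or KO clone 1A (0.07), or with 1A and 1B summed (0.054). Lgmn, the gene of an endosomal protease, fell in WT clones by 0.52 ± 0.18 (adjusted p = 0.036). That call was lost under 5 of 12 alternatives: without WT clone 1 (adjusted p = 0.135), WT clone 2 (-0.35, 0.197), KO clone 1A (0.063) or 1B (0.062), and with 1A and 1B summed (0.062).

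This list also held differences between the genotypes, for which 1.21% of all genes were called in medium and 4.64% under stimulation. Ifi30, which encodes the thiol reductase GILT of the class II route, stood at 326, 433 and 341 CPM in WT clones 1, 2 and 3 and at 185, 218 and 177 CPM in KO clones 1A, 1B and 2 in medium. Under stimulation it stood at 281, 360 and 254 CPM in WT and at 108, 118 and 108 CPM in KO clones. All KO libraries were thus below all WT libraries of the same condition. It was lower in KO clones by -0.92 ± 0.15 on the log2 scale in medium (edgeR adjusted p = 0.016) and by -1.42 ± 0.15 under stimulation (adjusted p = 0.0012). The medium call was lost without any 1 KO clone (adjusted p = 0.086 to 0.218), the stimulated one was not. Lgmn was lower in KO clones under stimulation (207 ± 37.3 against 400 ± 12.6 CPM, SD, -0.95 ± 0.18, adjusted p = 0.018), a call lost under 5 of 11 alternatives.

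Other ligands and receptors of T cell costimulation mostly rose. Of 27 such genes 19 were measured, and 13 rose and 1, Cd276, fell in WT clones (median 2.68). Cd86, Cd80, Cd40 and Cd274, described above, are among the 13 that rose in each genotype. Of all genes, 23.8% were called higher in WT and 26.7% in KO clones, and 47.4% and 54.3% in either direction. In KO clones 13 rose and none fell (median 2.81), or 12 rose and 2 fell under library totals. Icam1, which encodes the adhesion ligand of LFA-1, rose by 3.08 ± 0.33 in WT clones (edgeR adjusted p = 4.0e-05), and Cd47, the ligand of SIRP-alpha, by 2.32 ± 0.27 (adjusted p = 6.5e-05). Tnfrsf14, the gene of the BTLA ligand HVEM, rose by 2.68 ± 0.42 (adjusted p = 4.4e-04). Icosl, the ICOS ligand gene, rose by 3.65 ± 0.53 in WT (adjusted p = 2.9e-04) and by 6.15 ± 0.64 in KO clones (adjusted p = 2.6e-05), from 1.82 ± 0.163 CPM in WT and 0.338 ± 0.158 CPM in KO clones (SD, n = 3). Its level in medium did not pass the test between the genotypes (-2.37 ± 0.67, adjusted p = 0.131).

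Cd48, which encodes a ligand of the CD2 and 2B4 receptors, was the 1 gene of that list called between the genotypes. Of all genes 1.21% were called in medium and 4.64% under stimulation. In WT and KO clones Cd48 was a low transcript. It stood at 13.4, 13.6 and 2.99 CPM in WT clones 1, 2 and 3 and at 0.675, 0.676 and 1.07 CPM in KO clones 1A, 1B and 2 in medium. Under stimulation it stood at 14.9, 12.5 and 4.65 CPM in WT and at 0.716, 0.391 and 0.875 CPM in KO clones. It was lower in KO clones by -3.62 ± 0.63 in medium (edgeR adjusted p = 0.024) and by -4.0 ± 0.67 under stimulation (adjusted p = 0.011), and it did not respond to LPS/IFN-gamma beyond the spread (0.1 ± 0.54, adjusted p = 0.899, in WT clones). In medium it no longer passed without WT clone 1 (adjusted p = 0.059), WT clone 2 (0.067) or any KO clone (0.085 to 0.263). Under stimulation it no longer passed without KO clone 1A (0.122) or 1B (0.110). Both calls were also lost with those clones summed.

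**Figure D4:**
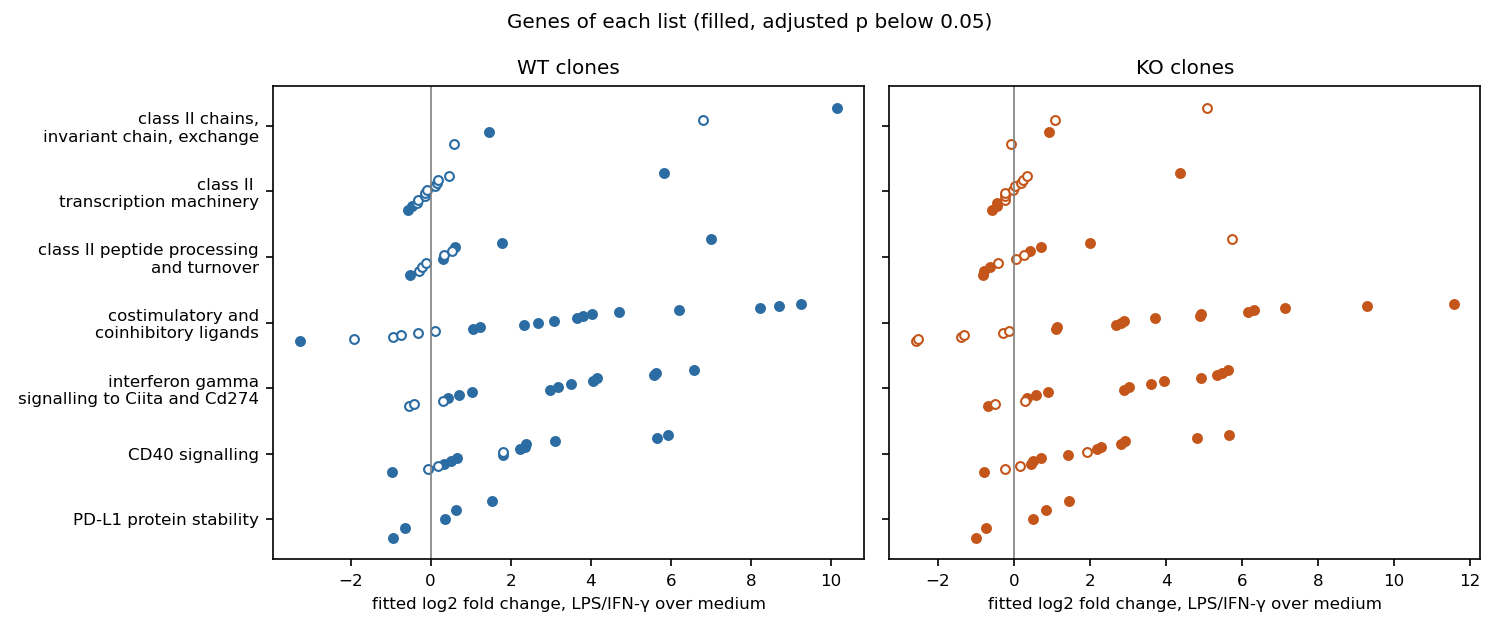
Fitted log2 fold change, LPS/IFN-gamma over medium, of each gene in 7 gene lists, 1 point per gene, in WT (left) and KO clones (right), filled where the edgeR adjusted p was below 0.05. The costimulatory, interferon gamma and CD40 signalling lists extend to the right in both genotypes, whereas genes of the class II transcription machinery cluster near 0; the point farthest right in the costimulatory list of KO clones is Cd86, whose fitted value is no bound.

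Genes of interferon gamma and CD40 signalling mostly rose in both genotypes. Of all genes, 23.8% were called higher in WT and 26.7% in KO clones. Of 14 genes of interferon gamma signalling, 11 rose in WT clones and none fell (median 3.07), and 11 rose and 1, Ifngr1, fell in KO clones (median 2.96). Under library totals 10 rose and 2 fell in WT and 8 rose and 2 fell in KO clones. Irf1, an interferon-induced transcription factor gene, rose by 5.62 ± 0.22 (edgeR adjusted p = 4.3e-08) in WT clones, the feedback inhibitor genes Socs1 and Socs3 by 6.59 ± 0.36 and 5.58 ± 0.31, and Stat3 by 2.97 ± 0.14. Of 14 genes of CD40 signalling, 10 rose and 1, Map3k14, fell in each genotype (medians 1.8 and 1.66), with 8 and 2 under library totals. Cflar, a caspase-8 inhibitor gene, rose by 3.11 ± 0.13 in WT clones (adjusted p = 5.9e-08), Nfkb1 by 2.22 ± 0.11, Nfkb2 by 2.39 ± 0.22 and the NF-kB inhibitor gene Tnfaip3 by 5.66 ± 0.52. No gene of either list was called between the genotypes, where 1.21% of all genes were called in medium and 4.64% under stimulation.

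Genes whose products set the life of the PD-L1 protein split in the same way in both genotypes, with 3 of 5 higher and 2 lower (medians 0.36 and 0.49), or 2 and 2 under library totals. Of all genes, 47.4% were called in WT and 54.3% in KO clones. Cmtm6, which protects PD-L1 from degradation, rose by 1.53 ± 0.17 in WT clones (edgeR adjusted p = 4.6e-05), and its relative Cmtm4 fell by 0.94 ± 0.16 (adjusted p = 8.9e-04). Cops5, the gene of a deubiquitinase, rose by 0.63 ± 0.1 (adjusted p = 4.1e-04), and Stub1, the gene of a ubiquitin ligase, fell by 0.64 ± 0.11. No gene of this list was called between the genotypes, against 1.21% of all genes in medium and 4.64% under stimulation. No gene of any of the 7 lists was called in the interaction, where 0% of all genes were called.

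Profiles closest to each of the 7 genes were sought among 10811 protein-coding genes by the root mean square difference of centred log2(CPM + 1) values over the 12 libraries, as a description without a test. For Cd274 the closest was Cdc42ep2 (0.31), followed by Irf1 and Batf2 (0.49 each). For Cd40 they were the interferon-induced GTPase genes Gbp2b (0.41) and Gbp3 (0.45) and the uridine phosphorylase gene Upp1 (0.48). For Cd86 they were Notch1 (0.36), Socs1 (0.4) and Tnfaip3 (0.42), and for Cd80 Fndc3a (0.3), Prkx (0.3) and Pnp2 (0.31). Cd207, Serpinb1b and Tgm2 were closest to Ciita, at 0.57, 0.54 and 0.58, and averaged 20.4, 12.7 and 41.2 CPM in stimulated WT against 1.68, 1.16 and 10.4 CPM in stimulated KO clones. Because WT clone 2 held 94.1% of the stimulated WT counts of Ciita, likeness to it favours genes high in that library. These means are therefore not read as a difference between the genotypes. For Cd74 the closest were Ttc39b (0.34), Galnt3 (0.37) and Cldn12 (0.39), and for H2-DMa Pqlc1 (0.22), Pik3r5 (0.23) and Tmbim1 (0.24). None of the 7 was among the closest profiles of another.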

How the data were processed

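The authors deposited raw counts, whole numbers per Ensembl gene for 12 libraries, per the file's values, of which 66 were written in exponent form. The build was mm10 (GRCm38) and DESeq2 is named, per the submitters' processing notes; the sources used here do not name the aligner, the counter or the strand setting. GENCODE M21 named 12305 of 12483 IDs. The 7 genes, the gene lists and the tests were chosen with earlier results of these data known. In R 4.3.3, edgeR 4.0.16 (filterByExpr, TMM, robust quasi-likelihood, 1 mean per group, 8 residual degrees of freedom) tested 12231 genes and left out 252. For a group at 0, folds used a floor of 3 counts over the group, and floors and 95% intervals cover counting error only. The fit was tested on simulated data. Alternatives were RLE factors, library totals, no filter, DESeq2 1.42.0, clone as a block, each clone left out, and KO 1A and 1B summed. The labels tie 2 libraries to each clone, which pairs them, and their deviations from group means correlated at 0.287 to 0.7. Beside the 7 genes, each list named up to 4 genes called in the WT response and up to 2 in each KO comparison, smallest p first, plus the 3 closest profiles per gene. H2-Ab1, Itgax, Blnk, Siglech, Xcr1, Clec9a and Lck, and Cd276, Ifngr1 and Map3k14 as single exceptions, were named after their values were seen.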

Additional observations from a re-analysis of the deposited data

How the results depend on the processing

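Over 12 alternatives the 7 genes kept their calls in the WT response except H2-DMa, which was called with clone as a replicate block (7 called in WT and 7 in KO clones, against 6 and 5). The block also raised the number of all genes called in the WT response, from 5796 to 7485. Of 406 values of the 7 genes, 379 kept direction and side of the threshold, 12 passed it only in the alternative, 5 only in the reported fit, and 10 changed sign. For other named genes the numbers were 301 of 331 kept, 29 lost and 1 reversed. Between KO and WT clones in medium 0 of the 7 were called, 1 in DESeq2 and 0 to 1 without single clones, and under stimulation 0, and 0 to 1 without single clones. Over all genes, 148 were called in medium (621 in DESeq2, 16 with 1A and 1B summed, 14 to 419 without single clones) and 567 under stimulation (1153, 73, and 48 to 972). The interaction called 0 (22 in DESeq2, 40 with the replicate block, 0 to 4 without single clones), so for the interaction the paired fit changed that count but no call of the 7. Signs reversed for Cd40 in medium without WT clone 2 (-0.04, range without single clones -0.04 to 1.66), Ciita (0.29, range -4.18 to 0.29) and Cd80 (0.42, range -0.55 to 0.42) under stimulation without WT clones 2 and 3, and March8 in the WT response under library totals (-0.06). Ciita in medium, with 1 count in all, reversed without KO clone 1A (adjusted p = 1.000, range 0.782 to 1.000). In the interaction, Cd40 reversed with the replicate block (-0.08), without WT clone 3 (-1.03) and without KO clone 2 (-0.21, range -1.03 to 0.55), Cd274 without WT clone 1 (-0.06) and KO clone 1A (-0.02, range -0.06 to 0.33), and Cd74 without WT clone 2 (0.00055, range -0.87 to 0.00055). The cause was not tested. Depth limits Ciita, H2-Ab1 and, in medium, Cd86 and Cd80, whose counts per library were mostly under 10.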
